A study of Mus musculus with 11 samples.

Results

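Aminoacyl-tRNA synthetases and target genes of the stress factor Atf4 were compared between mouse T cell acute lymphoblastic leukaemias (T-ALL) with and without Utx, an X-linked histone demethylase listed as Kdm6a. The set holds 44 of the 37224 gene rows, chosen by symbol: 20 cytosolic synthetases, 14 mitochondrial synthetases, whose symbols end in 2, and 10 genes of the amino acid stress response. Each symbol was borne by 1 row. The knockout group has the genotype Utx-/Y, and the wild-type group is Utx+/+ or Utx+/Y, which makes sex differ in part between the groups. In both groups cKit-positive blood progenitors of C57/BL6 background received Notch1-IC, the activated intracellular part of Notch1, on a retrovirus and were transplanted into mice by vein. Leukaemic cells were taken from bone marrow or spleen, in 5 knockout samples (2 marrow, 3 spleen) and 6 wild-type samples (2 marrow, 4 spleen), of which 1 and 2 were repeat runs. Ages were not given in the labels, nor whether each sample came from a separate mouse. The values used are 1 pooled read count per gene and genotype, so no spread between tumours can be given, and a difference between the pools has no replicate check.

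Each synthetase joins 1 kind of amino acid to its transfer RNA (tRNA), the step that sets which amino acid a codon is read as. Cells keep a cytosolic set for the proteins encoded in the nucleus and a mitochondrial set, also encoded in the nucleus, for the proteins made inside mitochondria. When an amino acid runs short, uncharged tRNA activates the kinase Gcn2 (Eif2ak4), which phosphorylates the initiation factor eIF2; most translation falls while that of Atf4 mRNA increases. Atf4 pairs with C/EBP proteins and related factors and is known to raise cytosolic synthetases, asparagine and serine synthesis enzymes and the mitochondrial folate enzymes. Lymphoblastic leukaemia cells are known for their need of outside asparagine, the basis of treatment with asparaginase.

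The knockout pool held 106445530 counts and the wild-type pool 108015222. Kdm6a had 1115 and 6299 counts, or 10.5 and 58.3 on the counts-per-million scale (CPM). A gene is called here where the pools differ at least 2-fold in depth-scaled counts, it has at least 100 combined counts, and the exact 95% Clopper-Pearson interval of its log2 ratio, which covers counting error only, is without 0. T cell genes were abundant in both pools: the summed level of 8 markers, Cd3d, Cd3e, Cd3g, Cd4, Cd8a, Lck, Ptcra and Thy1, was 2344 CPM in the knockout and 3221 in the wild-type pool, and 1 of 8, Thy1, was called lower (0 of 8 with scaling by the trimmed mean of M-values, TMM, which adds 0.08 to each log2 ratio). Markers of other blood cells were present too. The 8 macrophage and monocyte markers summed to 294 CPM against 99.1, and 8 of 8 were at least 2-fold higher. The 6 erythroid markers summed to 20047 and 9913 CPM, with 2 of 6 called higher. The 7 neutrophil markers summed to 2417 and 1988 CPM, with 1 of 7 called higher, and the 6 stromal and endothelial markers to 116 and 95.1 CPM, with 2 of 6 called higher. The 5 B cell markers summed to 5.04 and 5.77 CPM, and Pax5 was called lower. None of these markers was at 0 in both pools. In pooled bulk RNA, fewer cells of a type and less RNA per cell cannot be told apart, and the part of these cells in the members' ratios was not tested.

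The members differed in level over a wide range. Levels of different genes are compared here per length, as CPM per kilobase of annotated exon, averaged over the pools. Cytosolic synthetases had a median of 19.1, from 4.56 for Cars to 63.8 for Gars. Mitochondrial synthetases had a median of 2.66, from 0.532 for Mars2 to 82.4 for Lars2, and the next highest, Iars2, stood at 9.80. The cytosolic median was 7.17 times the mitochondrial one. Atf4 itself, with 67.3, was the second most abundant of the 44 genes. Chac1, which degrades glutathione and is a target of the pathway, was nearly silent with 18 and 11 counts, and it is the 1 member under the minimum of 100 combined counts used for calls.

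**Figure D1:**
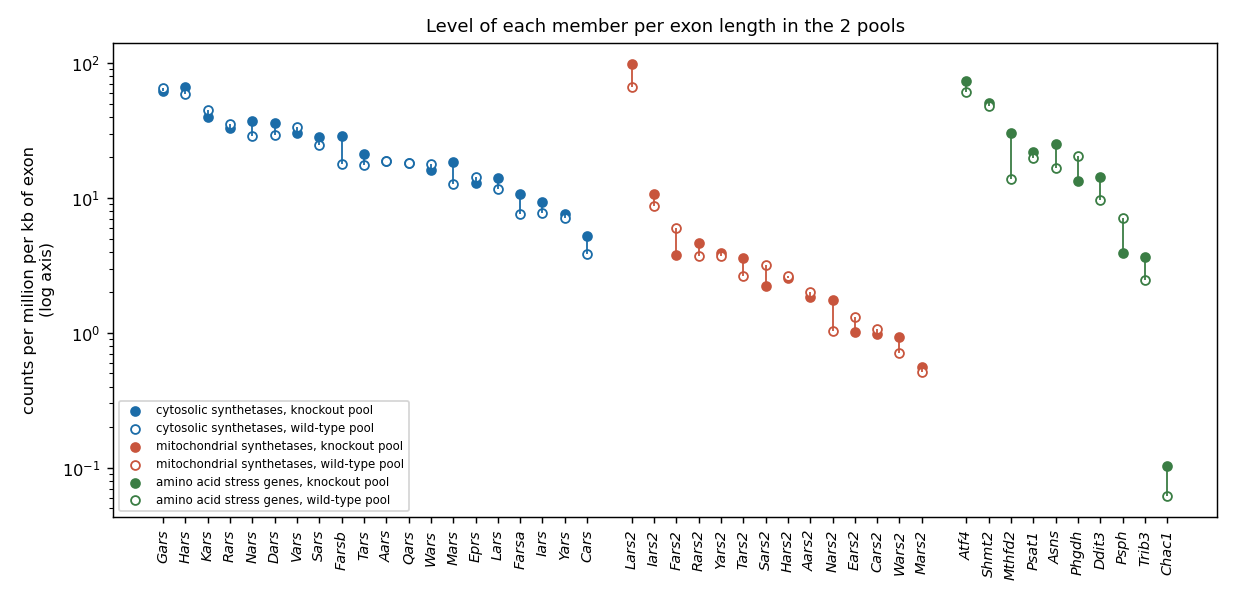
Level of each of the 44 members in CPM per kilobase of exon (vertical log axis), filled circles for the knockout pool and open circles for the wild-type pool, ordered by level within each class; each point is 1 pooled value. Lars2 stands at 98.2 and 66.6, apart from the other mitochondrial synthetases, and Chac1 is lowest at 0.103 and 0.0622.

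Lars2, the mitochondrial leucine enzyme (GRCm38 chromosome 9, 123366927 to 123462666, plus strand), stood apart. Its 115971 counts (knockout) and 79796 counts (wild-type) were 82.5% and 77.4% of all counts on the 14 mitochondrial synthetases. Per length it was 31.8 times the median of the other 13 and 4.33 times the cytosolic median. Of the 3845 windows of 50 bases, the read length, in its longest coding transcript, 3 are also found in a transcript of another gene, Gm15564. That check covered 3894 bases and searched annotated transcripts only, while the level of Lars2 is taken over 11.1 kilobases of annotated exon. It cannot show that all these reads come from Lars2 mRNA, and the source of the high level was not tested. Sums over the mitochondrial list are given with and without it. With Lars2 the mitochondrial enzymes summed to 1320.45 and 955 CPM. Without it the sums were 231 and 216.

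Of the 43 members with enough counts, 1 was called higher in the knockout pool and 0 lower. Over all 13833 genes with that count, 11.2% were called higher and 5.36% lower, 16.6% in either direction, against 2.33% of the members. The members are deeply counted, with at least 1041 combined counts in each of the 43, and among genes with at least 1000 counts 8.67% were called. At a lower minimum of 1.5-fold, 4 members were higher (Mthfd2, Nars2, Farsb and Asns) and 3 lower (Psph, Fars2 and Phgdh), which are 9.30% and 6.98% of the members beside 18.9% and 14.7% of all genes. That count depends on the scaling: with TMM 8 were higher, Ddit3, Lars2, Mars and Trib3 being added, and 1 lower, Psph, beside 20.9% and 11.4% of all genes. Counting error was small: the half-width of the interval was 0.05 on the log2 scale for the median member and at most 0.18. It holds no spread between tumours, and TMM scaling alone moves each log2 ratio by 0.08. By interval alone 25 members stood above 0, 12 below and 6 on neither side, while 37% of all genes stood above and 46.7% below. With TMM scaling 29 members stood above and 9 below, beside 42.4% and 40.2% of all genes. The log2 ratio, knockout over wild-type, had a median of 0.16 over the members and -0.07 over all genes tested.

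**Figure D2:**
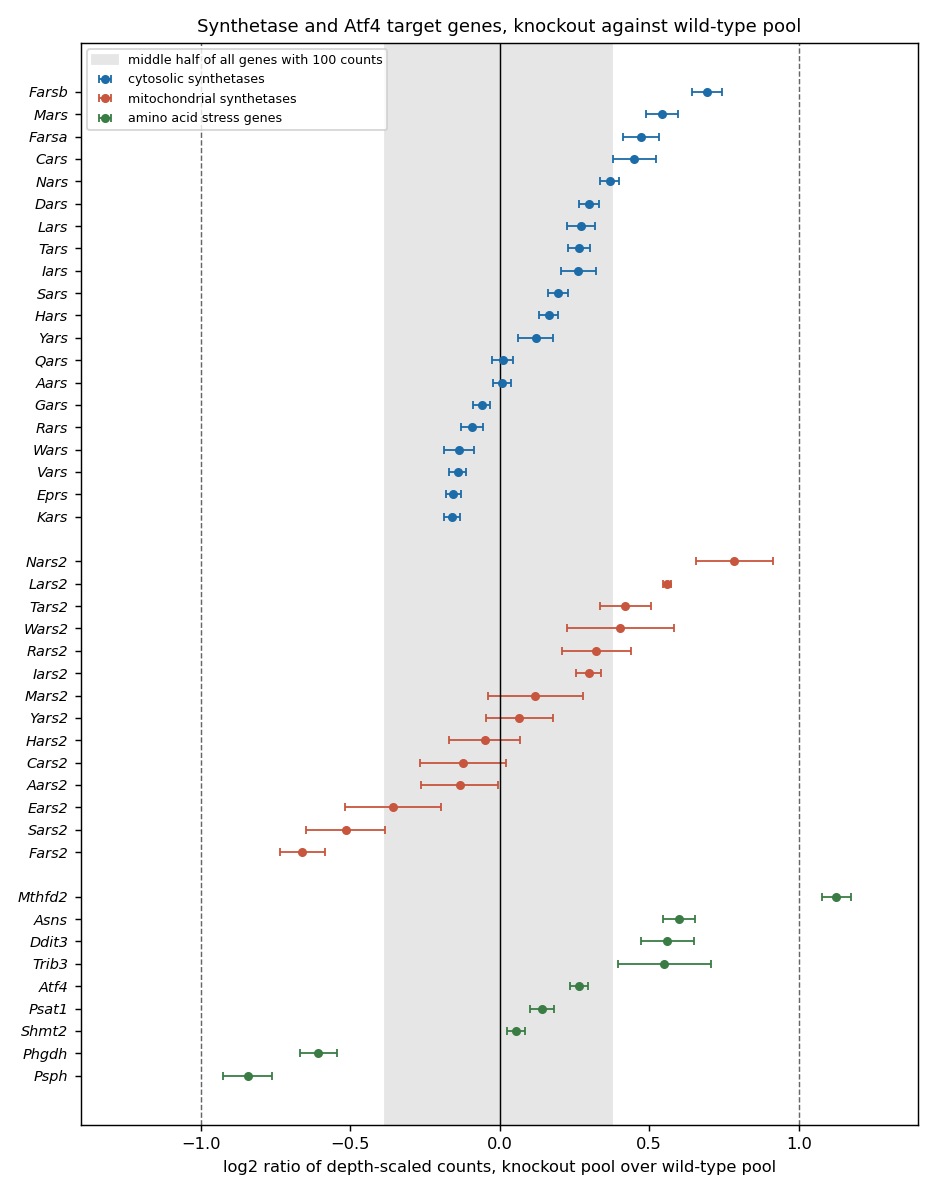
Log2 ratio of depth-scaled counts, knockout over wild-type pool, for the 43 members with at least 100 combined counts (horizontal axis), by class; bars are exact 95% intervals for counting error, dashed lines mark 2-fold and the grey band is the interquartile range of all genes with that count. Mthfd2, at 1.13, is the member beyond a dashed line, and Psph is lowest at -0.84.

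Cytosolic synthetases stood slightly higher in the knockout pool, and none of the 20 was called. Their median log2 ratio was 0.18, from -0.16 for Kars to 0.69 for Farsb, and the standard deviation over the 20 genes was 0.26. The interval lay above 0 for 12, below 0 for 6 and held 0 for Aars and Qars, the alanine and glutamine enzymes. Summed over the list the levels were 2382 and 2247 CPM, a log2 ratio of 0.08.

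The phenylalanine enzyme is made of 2 kinds of subunit, and both were among the highest cytosolic ratios. Farsb, the beta subunit, had 8034 counts (knockout) and 5044 (wild-type), a log2 ratio of 0.69 (95% interval 0.64 to 0.74). Farsa, the alpha subunit, had 5140 and 3760 counts, a log2 ratio of 0.47 (0.41 to 0.53). Of the 50-base windows of Farsb, 10.1% are shared with transcripts of Sgpp2. Mars, which also charges the initiator tRNA with methionine, had 6773 and 4720 counts, at 0.54, and Cars, the cysteine enzyme, 3689 and 2739, at 0.45. Nars, the asparagine enzyme, followed with 17293 and 13600 counts, at 0.37.

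A middle group of cytosolic enzymes lay between 0.12 and 0.30. Dars, the aspartate enzyme, had 16787 counts (knockout) and 13847 (wild-type), a log2 ratio of 0.30. Lars (leucine), Tars (threonine) and Iars (isoleucine) stood at 0.27, 0.27 and 0.26, Sars (serine) at 0.20, Hars (histidine) at 0.16 and Yars (tyrosine) at 0.12. Neighbours in this order from Lars to Iars have overlapping intervals, and no order is read among them.

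The lowest cytosolic ratios included those of abundant enzymes. Kars, which makes both the cytosolic and the mitochondrial lysine enzyme, had 19085 counts (knockout) and 21631 (wild-type), a log2 ratio of -0.16 (-0.19 to -0.13). Eprs, which joins the glutamate and proline enzymes in 1 chain, had 24784 and 28009 counts, also at -0.16. Vars (valine), Wars (tryptophan) and Rars (arginine) stood at -0.14, -0.14 and -0.09. Gars, the glycine enzyme of both compartments, was at -0.06 with 20741 and 21950 counts, and at 0.02 with TMM scaling, so its sign depends on the scaling. Without the dual-compartment genes Gars and Kars the median of the list was 0.23.

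Of the cytosolic enzymes, 8 sit together in the multi-synthetase complex: Dars, Eprs, Iars, Kars, Lars, Mars, Qars and Rars. Their ratios ran from -0.16 to 0.54 with a median of 0.14, beside -0.14 to 0.69 and a median of 0.18 for the 12 outside it. Of the scaffold proteins of that complex, Aimp1 had a log2 ratio of -0.25, Aimp2 of 0.16 and Eef1e1 of 0.07. The difference between the enzymes inside and outside the complex was not tested.

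Mitochondrial synthetases spread more widely and to both sides. None of the 14 was called, and the median log2 ratio was 0.09, from -0.66 for Fars2 to 0.78 for Nars2, with a standard deviation over genes of 0.42. The interval lay above 0 for 6, below 0 for 4 and held 0 for 4 (Cars2, Hars2, Mars2 and Yars2). Without Lars2 the median was 0.07. The cytosolic median was 0.09 above the mitochondrial one, a difference that no depth scaling can move, and smaller than the spread over genes within either list.

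Nars2, which charges mitochondrial tRNA with asparagine, had 1309 counts (knockout) and 771 (wild-type), a log2 ratio of 0.78 (0.66 to 0.92), and 6.30% of its 50-base windows are shared with C230038L03Rik. Lars2 stood at 0.56 (0.55 to 0.57). Tars2 (threonine), Wars2 (tryptophan), Rars2 (arginine) and Iars2 (isoleucine) followed at 0.42, 0.40, 0.32 and 0.30, and of the 50-base windows of Iars2 36.6% are shared with transcripts of Rab3gap2. On the other side Fars2, the mitochondrial phenylalanine enzyme, had 2314 and 3710 counts, a log2 ratio of -0.66 (-0.74 to -0.58). Sars2 (serine) had 791 and 1146 counts, at -0.51 (-0.65 to -0.38), and Ears2 (glutamate) 559 and 726, at -0.36 (-0.52 to -0.19).

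The other 5 lay nearer to 0. Aars2 (alanine) stood at -0.13 and Cars2 (cysteine) at -0.12, Mars2 (methionine) at 0.12 on 666 and 622 counts, and Yars2 (tyrosine) at 0.07 on 1304 and 1264. Hars2 (histidine) was at -0.05 on 1159 and 1218 counts and at 0.03 with TMM scaling, so its sign depends on the scaling. Hars and Hars2 lie beside each other on the genome and share 146 windows of 50 bases, 7.53% of those in Hars and 4.44% of those in Hars2.

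Cytosolic and mitochondrial enzymes for the same amino acid often had unlike ratios. In 15 pairs, which count Fars2 against both subunits of the cytosolic enzyme, the signs were the same in 7 and opposite in 8. These 2 counts depend on the scaling: with TMM Hars2 stood at 0.03, on the same side of 0 as Hars. The difference of the log2 ratios within a pair does not depend on depth scaling, and its 95% Woolf interval, again for counting error only, put the mitochondrial enzyme above in 5 pairs and the cytosolic one above in 8, and held 0 in 2 (Iars2 and Yars2). The widest gap was in the phenylalanine enzymes, where Fars2 was 1.35 below Farsb on the log2 scale (difference -1.35, -1.44 to -1.26) and 1.13 below Farsa (difference -1.13, -1.23 to -1.04). Sars2 against Sars differed by -0.71 (-0.84 to -0.57) and Cars2 against Cars by -0.57 (-0.73 to -0.41). In the other direction Wars2 stood above Wars by 0.54 (0.36 to 0.72), and Nars2 above Nars and Rars2 above Rars by 0.42 each. Asparagine, leucine, isoleucine and threonine are the amino acids for which both enzymes had ratios with an interval above 0. Per length the cytosolic enzyme was the more abundant in 13 of 15 pairs, the exceptions being Lars2 and Iars2.

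**Figure D3:**
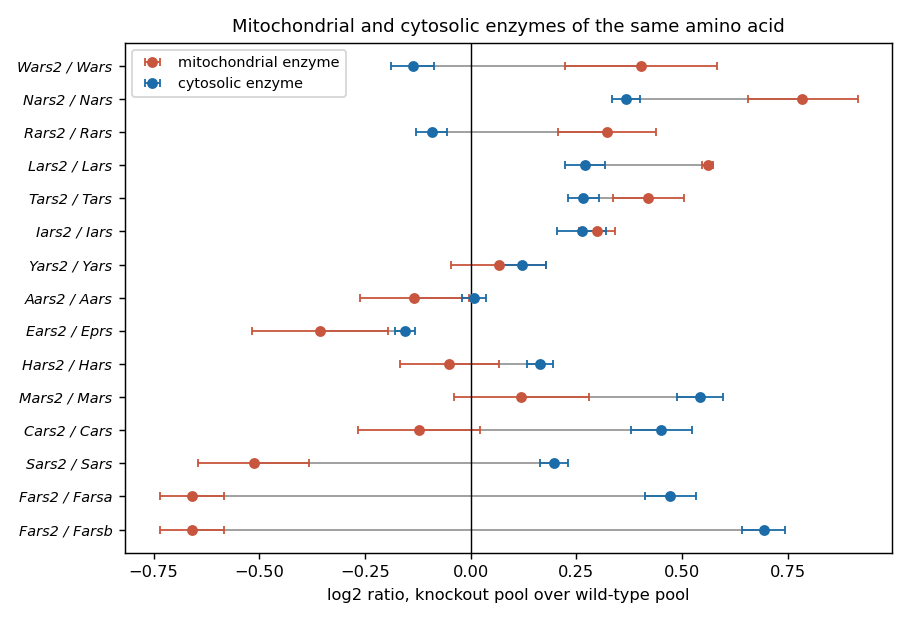
Log2 ratio, knockout over wild-type pool (horizontal axis), of the mitochondrial and the cytosolic synthetase for the same amino acid, 1 pair per line, ordered by their difference; points are pooled values and bars exact 95% intervals for counting error. The lowest lines, Fars2 with Farsa and Farsb, lie on opposite sides of 0, while Nars2 and Nars both lie above it.

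Among the 10 amino acid stress genes 1 of the 9 with enough counts, Mthfd2, was called higher, beside 11.2% of all genes tested. The other 8 were not called. The ratios of the 9 genes had a median of 0.26, which is that of Atf4, and ran from -0.84 to 1.13. Mthfd2 (GRCm38 chromosome 6, 83305691 to 83325908, minus strand), the mitochondrial folate dehydrogenase and cyclohydrolase that cells in growth use to pass on one-carbon units, had 11219 counts (knockout) and 5219 (wild-type), or 105 and 48.3 CPM. That is 2.18-fold, a log2 ratio of 1.13 (1.08 to 1.17), and 90.4% of all genes tested had a smaller ratio. None of its 50-base windows was found in another gene.

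Atf4, the stress factors beside it and Asns had ratios with an interval above 0, below the 2-fold minimum. Atf4 (GRCm38 chromosome 15, 80255184 to 80257541, plus strand) had 18440 counts (knockout) and 15579 (wild-type), a log2 ratio of 0.26 (0.23 to 0.30); its protein is set mainly by translation, which these counts do not measure. Ddit3, the stress factor also called CHOP, had 2621 and 1803 counts, a log2 ratio of 0.56 (0.47 to 0.65). Trib3, a pseudokinase that Atf4 and CHOP switch on and that restrains them in turn, had 820 and 568 counts, at 0.55 (0.39 to 0.71). Of the 50-base windows of Ddit3, 8.92% are found in transcripts of other genes, among them Mars. Asns, which makes asparagine, had 7357 and 4927 counts, 69.1 and 45.6 CPM, a log2 ratio of 0.60 (0.55 to 0.65). Chac1, with its 29 combined counts, had an interval from -0.43 to 1.96, so a difference was not detectable at this depth.

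The 3 enzymes of serine synthesis did not share a direction. Phgdh, the first enzyme of the path from glycolysis, had 3544 counts (knockout) and 5476 (wild-type), a log2 ratio of -0.61 (-0.67 to -0.55). Psat1, the second, had 9966 and 9167 counts, at 0.14 (0.10 to 0.18). Psph, the last, had 1814 and 3301 counts, at -0.84 (-0.93 to -0.76), and 7.53% of all genes tested had a smaller ratio. The value of Phgdh is uncertain, since 63.1% of its 50-base windows are also found in Gm7901, Gm9347 and Gm8341, and 23.9% of those of Psph are shared with Cct6a. Shmt2, which passes the one-carbon unit of serine to folate in mitochondria just before Mthfd2 acts, had 16658 and 16280 counts, at 0.05 (0.02 to 0.09). Along the chain from Phgdh to Mthfd2 the log2 ratios thus ran -0.61, 0.14, -0.84, 0.05 and 1.13.

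Promoters of the members were searched for the core of the C/EBP-ATF response element, TGATGNAA on either strand (TTNCATCA when read from the other strand), the element that Atf4 dimers are known to bind. The window was the 250 bases before each gene's start in RefSeq (GRCm38.p6), which covered 37 of the 44 members (not Cars, Hars, Lars, Nars, Rars, Vars and Wars). A match was present for 5 of 37 (13.5%): 3 of 13 cytosolic synthetases, 0 of 14 mitochondrial ones and 2 of 10 stress genes, beside 3.91% of the 27025 genes in the table. Of the 5 matches, 4 are shown, to set the element beside the ratios of these genes. Capitals mark the element, read along the gene's own strand.
Asns, chr6:7693214-7693243, minus strand: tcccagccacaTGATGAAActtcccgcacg
Chac1, chr2:119351029-119351076, plus strand: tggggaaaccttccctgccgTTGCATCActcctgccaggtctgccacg
Gars, chr6:55037951-55037998, plus strand: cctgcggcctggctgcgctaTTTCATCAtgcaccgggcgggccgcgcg
Tars, chr15:11399659-11399684, minus strand: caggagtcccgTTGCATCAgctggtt

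The element began 23 bases before the start in Asns, 193 in Chac1, 30 in Gars and 15 in Tars. The log2 ratios of the genes shown were 0.60 for Asns, -0.06 for Gars and 0.27 for Tars, with Chac1 too low to judge. Mthfd2, Farsb and Nars2, the other genes at the top of the ratios, had no match in this window, and neither had Psph, Phgdh and Fars2 at the bottom. A match is a stretch of letters and not a measured binding site, and elements outside the window were not searched for.

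Further Atf4 targets and partner factors, a list of 25 related genes, held calls in both directions. Of the 19 with enough counts 3 were called higher and 2 lower, beside 11.2% and 5.36% of all genes tested, and the median was 0.44. Stc2, a secreted glycoprotein, had 313 counts (knockout) and 4 (wild-type), a log2 ratio of 6.14 (4.94 to 8.20). Atf3, a stress factor of the Atf family, had 614 and 50 counts, at 3.63 (3.22 to 4.09), and Nupr1, a small stress protein of chromatin, 264 and 61, at 2.13 (1.73 to 2.56). Slc7a11, the cystine importer, was lower with 256 and 1720 counts, at -2.72 (-2.92 to -2.54), and so was Jdp2, a repressor that pairs with Jun and Atf factors, with 769 and 3004 counts, at -1.94 (-2.06 to -1.83). The remaining 14 were not called, among them Cebpg, the partner of Atf4 at amino acid response elements, at 1.00 on 2619 and 1330 counts, just inside the 2-fold minimum; with TMM scaling it was at 1.08 and called higher. Under 100 combined counts were Gdf15 (25 and 4), Vldlr (23 and 2), Cth (32 and 10), Aldh1l2 (1 and 12), Cbs (1 and 3) and Fgf21, which had none. Beside the 3 higher genes, 8 of 8 macrophage and 6 of 6 erythroid markers had ratios above 0. Stromal and endothelial markers were mixed, with 2 of 6 called higher and Col1a2 at -0.37. The part of these cells was not tested.

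Genes called in opposite directions carried the same element. Of 21 genes of this list with a promoter in the table, 8 (38.1%) held a match, among them Atf3 and Nupr1, which were higher, and Slc7a11 and Jdp2, which were lower. Their elements are shown for that contrast, capitals again marking the core; Slc7a11 holds 2 copies, 1 on each strand. Positions are counted from the RefSeq start, and GENCODE gene models can begin earlier: in M21 the stretches shown for Asns, Tars, Atf3, Nupr1 and Jdp2 lie wholly or partly within the gene, and those of Asns, Tars and Nupr1 overlap an annotated exon.
Atf3, chr1:191183416-191183463, minus strand: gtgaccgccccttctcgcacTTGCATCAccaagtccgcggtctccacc
Nupr1, chr7:126625562-126625591, minus strand: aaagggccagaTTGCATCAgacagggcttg
Slc7a11, chr3:50443652-50443699, minus strand: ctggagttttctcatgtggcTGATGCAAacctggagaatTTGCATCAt
Jdp2, chr12:85599363-85599410, plus strand: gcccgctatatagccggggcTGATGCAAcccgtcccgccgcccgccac

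The next list holds genes of eIF2, its kinases and their regulators, its phosphatases and its exchange factor. Of 17 genes 0 were called higher and 0 lower, beside 11.2% and 5.36% of all genes tested. The median log2 ratio was -0.16 (-0.08 with TMM scaling). Gcn2, listed as Eif2ak4, had 637 counts (knockout) and 948 (wild-type), at -0.55, and its inhibitor Impact 1416 and 2130, at -0.57. Ppp1r15a, the stress-induced subunit that directs the phosphatase to eIF2, was highest at 0.35, with 15283 and 12157 counts, and the kinase Eif2ak2 followed at 0.28. Ppp1cc, a catalytic phosphatase subunit, was lowest at -0.69, and Eif2s3x, the X-linked gamma subunit of eIF2, stood at -0.58. Sex differs in part between the groups, and for this X-linked gene sex and loss of Utx cannot be told apart. The subunits of the exchange factor eIF2B lay between -0.16 and 0.07.

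None of the 16 other genes of tRNA charging was called, beside 16.6% of all genes tested. Their median was -0.12 (-0.04 with TMM scaling), with 5 ratios above 0 and 11 below. Over all genes tested the median was -0.07 (0.01 with TMM), with 6191 ratios above 0 and 7642 below. The mitochondrial amidotransferase that turns glutamate on tRNA into glutamine has 3 subunits with unlike ratios. Gatb, listed under its older symbol Pet112l, was at 0.68 on 685 and 435 counts, Gatc at -0.26 and Qrsl1 at -0.85 on 905 and 1656 counts. Pars2, the mitochondrial proline enzyme, stood at -0.59. Xpot, which exports tRNA from the nucleus and is also an Atf4 target, was at -0.10.

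Neighbouring metabolism and the endoplasmic reticulum stress response held a few called genes, beside 11.2% called higher and 5.36% called lower over all genes tested. Of 13 serine and one-carbon genes with enough counts, Mthfd2l, the close relative of Mthfd2, was higher at 1.21 on 357 and 156 counts, 0 were lower, and the median was -0.04 (0.04 with TMM scaling). Aldh1l1, which oxidises formyl-folate, was at 0.93 (1.01 and called higher with TMM), while Shmt1, of cytosolic serine use, stood at -0.57. Of 17 endoplasmic reticulum stress genes, Xbp1 (1.62, on 4073 and 1343 counts) and Ern1 (1.26, on 1330 and 565 counts), a stress factor and the enzyme that splices its mRNA, were higher. Herpud1, which serves in the degradation of misfolded proteins, was lower at -1.21, on 3151 and 7377 counts, and the co-chaperone Dnajc3 stood at -0.50. The median of that list was 0.18. Its abundant chaperones Hspa5, Hsp90b1 and Calr were at 0.24, 0.13 and 0.34, none of them called.

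**Figure D4:**
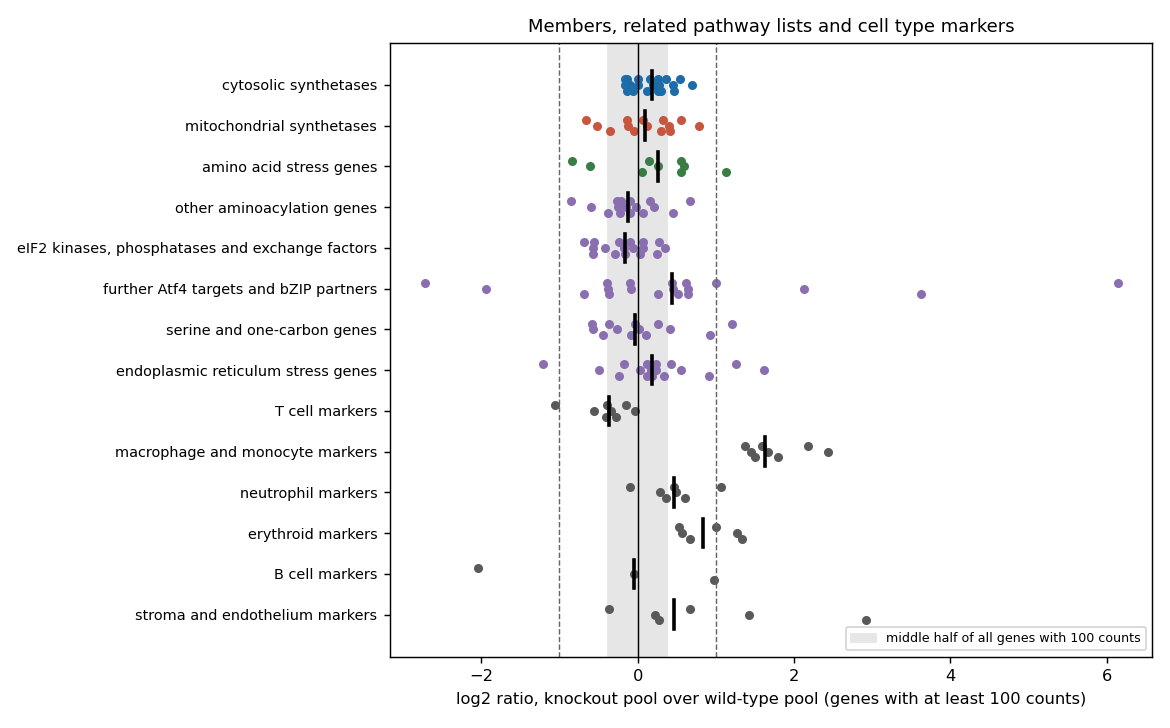
Log2 ratio, knockout over wild-type pool (horizontal axis), of each gene with at least 100 combined counts in the 3 member classes, 5 related pathway lists and 6 cell type marker lists; points are genes, short black lines list medians, dashed lines 2-fold and the grey band the interquartile range of all genes with that count. Synthetases of both compartments lie within 2-fold, further Atf4 targets reach from -2.72 to 6.14, and the macrophage and monocyte markers lie to the right of the 2-fold line.

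The authors' deposited table gives a q-value from DEGseq, a test on pooled counts that carries no spread between tumours. A q under 0.05 was given for 36 of the 44 members in the authors' deposited table, or 81.8%, beside 67.8% of the genes with a fold change there. Those 20904 genes include many with fewer counts than the members, so no excess among the members is read. Of the 13833 genes with at least 100 counts, 37% had an interval above 0 and 46.7% below. The 8 members above that threshold in the authors' deposited table were Aars, Qars, Hars2, Yars2, Chac1, Mars2, Cars2 and Aars2. With counts of this depth a q under 0.05 was reached by small differences, such as Shmt2 with a log2 fold change of 0.05 and a q of 0.0012 in the authors' deposited table.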

How the data were processed

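Poly(A)-selected, strand-marked libraries were sequenced as 50-base single reads, per the labels' protocols. CASAVA, TopHat and build mm9 are named without versions, per the submitters' processing notes. The sources used here do not give the annotation, counting tool, strand setting or make-up of each pool. The authors deposited 1 DEGseq table with whole pooled read counts per gene and genotype, log2 fold changes before and after scaling to column totals, a z score, p-values and q-values, per the file headers. Of the value columns, value1 was read as the knockout and value2 as the wild-type pool, following the order in the table's title. The number of per-sample value columns was 0, so no test across samples was run.

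CPM and log2 ratios (pseudocount 0.5 counts) used column totals as depth. Intervals were Clopper-Pearson 95% intervals of the knockout share, and Woolf intervals for differences of ratios. They cover counting error only, and they treat reads as independent molecules, which reads are not. A gene with 0 counts could still have 3, or 0.0282 and 0.0278 CPM. Exon lengths and coordinates are from GENCODE M21 (GRCm38), not mm9, matched by Ensembl identifier for 44 of 44 members. Exon lengths join all annotated transcripts, so per-length levels are rough.

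Named genes were all members, Kdm6a, and from each pathway list the called genes and the 2 highest and 2 lowest ratios; further list genes were named after their values were seen. Some items that the rule names, and 1 promoter match, are not reported here. The members and lists were chosen with earlier results of these data known. Alternatives were TMM and upper quartile scaling (edgeR 4.0.16), median of ratios (DESeq2 1.42.0), and other pseudocounts, minimums and lists. Lists without Lars2 or Phgdh, and the 1.5-fold counts and pathway lists under other scalings, were added after seeing the data. Python 3.11.15, scipy 1.17.1 and R 4.3.3 were used.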

Additional observations from a re-analysis of the deposited data

How the results depend on the processing

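Calls among the members were 1 higher and 0 lower under each other scaling (TMM, upper quartile, median of ratios), with 5 as pseudocount, with other minimums of the count, and with the authors' q in place of the interval. With a 1.5-fold minimum they were 4 higher and 3 lower, or 8 and 1 with TMM and 8 and 2 with the median of ratios. The cytosolic median of 0.18 was 0.26 with TMM, 0.25 with the median of ratios and 0.23 without Gars and Kars. The median of the stress genes, 0.26, was 0.34 with TMM, 0.33 with the median of ratios, 0.41 with a minimum of 20 counts or no minimum (both of which admit Chac1), 0.41 without Phgdh, and 0.21 as a mean. The mitochondrial median and its distance from the cytosolic one moved by less than their counting interval under the alternatives run. TMM moved all log2 ratios by 0.08 and the median over all genes from -0.07 to 0.01. Of 43 members 29 had ratios above 0, and 31 with TMM; 2 changed sign, Gars and Hars2. Calls of Thy1, Cebpg, Aldh1l1, Hbb-b1 and Cd79b outside the members changed with TMM. Depth left Chac1 without a call. Single libraries could not be left out, since the columns are pools. No paired analysis was possible because the columns are pools of a genotype and carry no replicate numbers.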
